A study of Mus musculus with 10 samples.

Results

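The genes described here are the nuclear-encoded subunits of the mitochondrial respiratory chain and ATP synthase. They were chosen by symbol, as rows of the deposited count table whose identifier belongs to a mouse protein-coding gene with a symbol that starts with Nduf (a, b, c, s or v and a digit), Uqcr, Atp5 or Cox and a digit from 4 to 8, or that is Cyc1 or Sdha to Sdhd, without pseudogene symbols. The rule found 86 of the 55421 genes in the table, with 35 in complex I, 4 in complex II, 9 in complex III, 20 in complex IV and 18 in complex V. Atp5o stands on 2 identifiers, so the 86 genes carry 85 symbols. Ndufa4 and its paralog Ndufa4l2 are placed in complex IV. The pattern misses Ndufab1, Ndufb1-ps, Usmg5 and Atpif1, which also encode subunits or an inhibitor.

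Complexes I and II take electrons from NADH and succinate and pass them through ubiquinone to complex III, cytochrome c and complex IV, where oxygen is reduced. Complexes I, III and IV pump protons, and complex V uses the gradient to make ATP. Most subunits are encoded in the nucleus and imported, while a few central ones of complexes I, III, IV and V are encoded by mitochondrial DNA. In a germinal center, dark zone B cells (centroblasts) divide rapidly, and light zone B cells (centrocytes) compete for antigen and T cell help.

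RNA was sequenced from B cells of immunized C57BL/6 mice aged 8 to 10 weeks, taken from the spleen on day 10 with a bead kit that selects cells binding peanut agglutinin, a lectin used to mark germinal center cells. Pbrm1 encodes BAF180, a subunit of the PBAF chromatin remodeling complex. Wild type mice (Pbrm1+/+, WT) gave 3 libraries of each of the fractions labelled CB and CC, and Pbrm1-/- mice (HOMO) gave 2 of each. What CB and CC stand for is not written in the labels, nor are the immunogen, the Pbrm1 allele or a Cre driver. The count columns carry the letters AID after Pbrm1, which no label explains. No label ties the libraries to separate mice, so every p-value here reflects only how much these libraries vary, which may be technical. WT libraries are numbered 1 to 3. The HOMO count columns are numbered 2 and 3 while the HOMO samples are titled replicate 1 and 2, so a HOMO column is tied to its group and fraction and not to a sample, and the column numbers are used here.

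Total counts were 9954006 to 67625110 per library. The library labels were checked first. Pbrm1 itself, at 309 to 319 CPM (counts scaled to the size of the library) in WT CB, was 164 to 178 CPM in HOMO CB, lower by the test used throughout (log2 -0.88, SE 0.087, edgeR adjusted p = 0.00954). In CC it was 239 to 250.3 CPM in WT and 150.4 to 152 CPM in HOMO, a log2 change of -0.68 that did not pass (edgeR adjusted p = 0.0564). These counts cover the whole gene, and the deleted part is not given. Markers of germinal center B cells were present in all 10 libraries (9 of 9 genes, summed 2943 to 4616 CPM). Dark zone markers summed to 1307 to 1740 CPM in CB and 557 to 650 in CC, and light zone markers to 353 to 417 CPM in CB and 788 to 858 in CC. Libraries within groups also stood apart. The sum of 10 macrophage markers, each detected, was 624, 156 and 44.2 CPM in WT CC 1, 2 and 3 and 9.52 to 32.7 CPM elsewhere. The sum of 7 neutrophil genes was 158 CPM in HOMO CB 2, 126 CPM in HOMO CC 2 and at most 14.5 CPM elsewhere. Summed T cell markers were at most 9.48 CPM, and erythroid markers were 62.5 CPM in WT CC 1, 14.1 in WT CC 2 and at most 3.74 elsewhere. The sum of 6 plasma cell markers was 647 to 724 CPM in WT CB, 293 to 515 in WT CC, 781 to 840 in HOMO CB and 414 to 428 in HOMO CC. Most of this gap came from Jchain (491 to 530 CPM in WT CB, 138 to 260 in WT CC), and Xbp1 was also lower in CC. Irf4 went the other way, at 37.1, 37.3 and 76.3 CPM in WT CB and 71.3, 80.1 and 143 in WT CC. Prdm1 did too, at 2.01, 2.61 and 6.93 against 5.63, 6.73 and 14.2 CPM, and both were also higher in HOMO CC. Sdc1 and Tnfrsf17 were at most 2.97 CPM. The 6 follicular dendritic and stromal markers summed to 407 to 557 CPM in CB and 855 to 1146 in CC, nearly all of it from Cr2 and Fcer2a, which B cells also express. Their part in the results was not tested. Counts from ribosomal RNA loci made up 22.7%, 19.0% and 13.5% of WT CC 1, 2 and 3, 11.3 to 11.9% of WT CB and 8.72 to 11.2% of the HOMO libraries. Xist stood at 467 and 72.5 CPM in WT CB 1 and 2 and at 708 and 84.5 CPM in WT CC 1 and 2, against 2022 to 2884 CPM in WT number 3 and in the 4 HOMO libraries. The Y-linked gene Ddx3y was detected in all 10 libraries, at 79.6 to 104 CPM in WT 1 and 2 and 35.2 to 51.1 CPM in the others. The labels give neither sex nor pooling, so the make-up of the libraries by sex may differ between these sets.

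Short sequences upstream of the subunit genes are shown because these genes are known targets of NRF1, the ERR receptors, ETS factors such as GABP, and YY1. Of the 82 members with any count, 66 had a promoter window in the RefSeq table (build GRCm38.p6, mm10), from 250 bases before to 50 bases after the gene's start. Letters were searched on both strands. The NRF1 core GCATGCGC lay in 15.2% of the 66 members, against 3.94% of 17492 protein-coding genes with a window. The full NRF1 palindrome, which is the core with GC before it, lay in 7.58% against 1.47%. The ERR motif TCAAGGTCA was in 3.03% against 0.377%, the ETS motif CCGGAAG in 24.2% against 12.9%, and the YY1 motif AAGATGGC in 15.2% against 3.57%. At least 1 of these motifs was in 31 of the 66, or 47.0%, against 19.0% of all windows. A match describes letters and does not show that a factor binds. The windows printed here were chosen among members that fell in WT CC. They are the 150 bases that end before both the RefSeq start and the GENCODE gene start, with at most 30 bases in annotated exons and a match inside them, for the member with the smallest p in each complex that had one. Matches outside such a stretch, as in Ndufb6 and Sdhb, are counted in the shares and not printed. From the RefSeq start the windows run from -181 to -32 (Ndufa6), -173 to -24 (Cox6a1) and -150 to -1 (Atp5g3). They belong to Ndufa6 (chr15:82354323-82354472, minus strand), Cox6a1 (chr5:115348982-115349131, minus strand) and Atp5g3 (chr2:73911327-73911476, minus strand), with NRF1 letters in capitals in the first and second and the ERR letters, read on the other strand, in the last.
Ndufa6: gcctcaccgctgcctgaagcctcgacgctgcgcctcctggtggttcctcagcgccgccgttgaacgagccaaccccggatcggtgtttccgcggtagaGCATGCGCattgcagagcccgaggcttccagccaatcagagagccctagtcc
Cox6a1: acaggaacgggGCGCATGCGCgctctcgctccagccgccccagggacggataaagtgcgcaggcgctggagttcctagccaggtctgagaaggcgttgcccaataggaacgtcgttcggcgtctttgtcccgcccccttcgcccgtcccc
Atp5g3: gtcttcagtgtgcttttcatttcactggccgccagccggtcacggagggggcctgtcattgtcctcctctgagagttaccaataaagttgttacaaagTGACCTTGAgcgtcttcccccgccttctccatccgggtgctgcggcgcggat

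The YY1 letters had a shared setting in 8 of the 10 members that held them. In each of the 8, AAGATGGC lay 20 to 42 bases after the RefSeq start and its ATG was an annotated start codon. In Atp5f1 and Atp5j the letters began at -3, on the other strand, and at -88. The range of 20 to 42 bases was chosen after the positions were seen, which favours the members' share. It held the letters in 12.1% of the 66 members and in 0.903% of all windows (158 genes). Of all genes with the letters on either strand, 25.3% held them in this range. The 30 bases around each of the 8 matches are shown for comparison, with the motif in capitals. They lie at chr5:145191503-145191532 (Atp5j2), chr7:3617381-3617410 (Ndufa3), chr6:126849100-126849129 (Ndufa9), chr19:44555393-44555422 (Ndufb8), chr3:51408918-51408947 (Ndufc1), chr13:114388045-114388074 (Ndufs4), chr13:73328434-73328463 (Ndufs6) and chr10:80249459-80249488 (Ndufs7), with Ndufa3 and Ndufs7 on the plus strand and the rest on the minus strand.
Atp5j2: gacaccaggacttcAAGATGGCgtcactcg
Ndufa3: tcgccgccaagaacAAGATGGCcgggagta
Ndufa9: aggcattgtgggagAAGATGGCggccgccg
Ndufb8: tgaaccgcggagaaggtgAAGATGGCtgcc
Ndufc1: ggagcctgcggaacAAGATGGCgccgtccg
Ndufs4: gcgtttgcctacaggAAGATGGCggcggtc
Ndufs6: caagggtcaccggcAAGATGGCggcggtgc
Ndufs7: tgaaggccgaggccAAGATGGCggcgctgg
Atp5j2, Ndufa9, Ndufc1 and Ndufs4 fell in WT CC by the edgeR test and the other 4 did not pass. Among the 34 matched members that fell and the 32 tested or untested members that did not, the NRF1 core lay in 4 and 6, the ETS motif in 10 and 6, the YY1 motif in 6 and 4, and the ERR motif in 2 and 0.

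Levels between genes are compared as CPM per kilobase of the deposited gene length, which counts every annotated exon base, so a gene with a long annotated variant gets a lower value. Complex V held the most abundant transcript, Atp5a1, the catalytic head's alpha subunit, at 190.1 CPM per kilobase (range over 10 libraries 162 to 250), followed in that complex by Atp5b, the beta subunit, at 138. In complex IV the highest was Cox6b1 at 122 (67.6 to 191), a subunit on the side facing cytochrome c. Uqcrh, the hinge protein of complex III, stood at 66.9 (53.8 to 84.7), and Sdha, the flavin subunit of complex II, at 45.9 (39.1 to 54.9). Thus the ranges of Atp5a1 and Cox6b1, pooled over the 10 libraries, overlapped, as did those of Uqcrh and Sdha. Pooled ranges do not show the order of genes within a library. The lowest tested members were Ndufb2 at 2.33, Sdhc at 8.70, Uqcrq at 11.8, Cox6b2 at 0.720 and Atp5l at 2.34 CPM per kilobase. The deposited lengths of Ndufb2 (5628 bases) and Atp5l (6443 bases) are long for these small proteins, and their counts may be spread over sequence that the main transcript lacks.

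**Figure D1:**
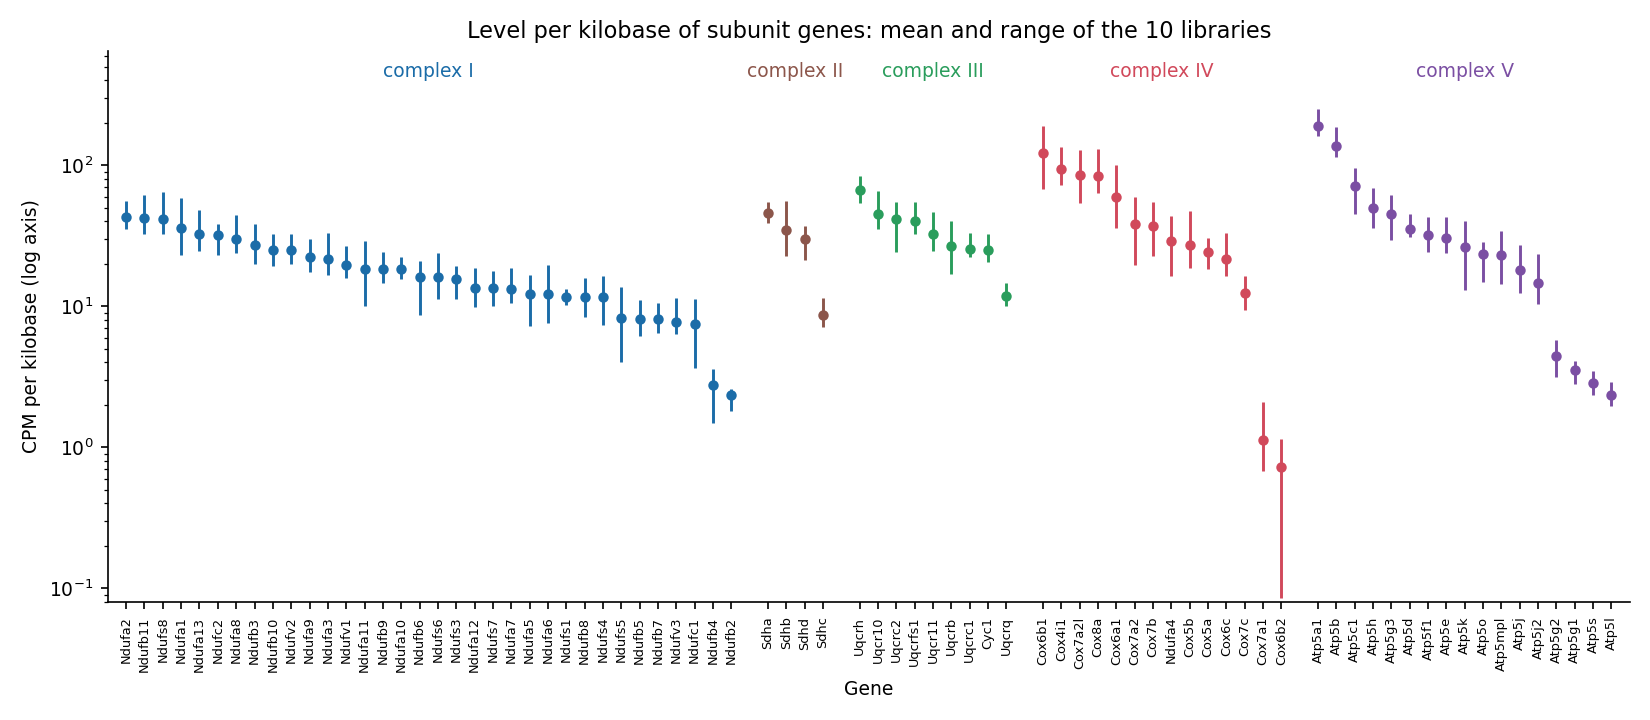
Level of subunit genes in CPM per kilobase of deposited gene length (log axis), as the mean (point) and range (line) of the 10 libraries, by complex. Atp5a1 stood at 190.1, while the tissue-restricted isoforms Cox6b2 and Cox7a1 lay near 1 CPM per kilobase.

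Paralogous isoforms were expressed very unequally. Cox4i1 (94.5 CPM per kilobase), Cox6a1 (59.2), Cox6b1 (122), Cox7a2 (38.2), Cox7b (37.4), Cox8a (84.3) and Ndufa4 (29.0) are the ubiquitous forms. Their counterparts, known from lung, heart and muscle, testis or hypoxic cells, were scarce. Cox4i2 stood at 0.179, Ndufa4l2 at 0.169 and Cox6a2 at 0.018 CPM per kilobase, the last from 3 counts in 1 library. Cox7b2, Cox8b and Cox8c had 0 counts in 299241697, for which 3 counts set a limit of 0.0100 CPM. Cox7a1, the muscle form, averaged 1.13 (0.684 to 2.10). The testis form Cox6b2 gave 0.720 CPM per kilobase over all libraries. The 3 genes for the identical mature c subunit of the ATP synthase ring differed as well, with Atp5g3 at 45.0, Atp5g2 at 4.46 and Atp5g1 at 3.52 CPM per kilobase. Of the 86 genes, 79 passed the filter on low counts (35, 4, 9, 14 and 17 in complexes I to V). The 7 others were Cox4i2, Cox6a2, Cox7b2, Cox8b, Cox8c, Ndufa4l2 and the second Atp5o identifier, which had 0 counts.

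Summed over all members, the subunit genes stood at 6033, 6395 and 4332 CPM in WT CB 1, 2 and 3 and at 4110.2, 4076 and 4044 CPM in WT CC 1, 2 and 3. The HOMO sums were 4864 and 4843 CPM in CB and 4158 and 4019.7 CPM in CC. WT CB 1 and 2 were the highest of the 10 libraries, WT CB 3 lay below both HOMO CB libraries, and the 5 CC libraries lay within 4019.7 to 4158 CPM. CB and CC did not overlap in either genotype. The closeness of the CC sums holds with TMM scaling: on plain CPM they were 3694, 3947 and 4216 CPM in WT and 4391 and 4256 CPM in HOMO, without overlap between genotypes. The ratio of group means, CB over CC, was 1.37 in WT and 1.19 in HOMO. Within each WT number it was 1.47, 1.57 and 1.07, and 75, 77 and 55 of the 79 tested members were lower in CC than in CB of the same number. The share of all genes lower in the same pairs was not computed, so these counts have no background beside them.

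By group means, complex IV had the widest gap between fractions. Its sum was 1089, 1147 and 703.5 CPM in WT CB, 600.5, 610.6 and 631 CPM in WT CC, 799 and 790.0 CPM in HOMO CB, and 635 and 609 CPM in HOMO CC. The CB over CC ratio of complex IV was 1.60 in WT and 1.28 in HOMO, and it was 1.81, 1.88 and 1.11 within WT numbers 1, 2 and 3. Complex IV made up 16.2 to 18.1% of the members' CPM in WT CB and 14.6 to 15.6% in WT CC, without overlap. Complex I had the smallest ratio, 1.25 in WT and 1.12 in HOMO, with 1372, 1494 and 990.3 CPM in WT CB and 1060.2, 1082 and 941 CPM in WT CC, so that the fractions overlapped. In HOMO, complex I was 1111 and 1104 CPM in CB and 1018 and 959.6 CPM in CC. Complexes II, III and V lay between, with ratios of 1.41, 1.28 and 1.38 in WT and 1.19, 1.15 and 1.20 in HOMO. Within WT number 3 this order did not hold: complex II had the largest ratio (1.12, against 1.11 for IV) and complex III the smallest (1.02, against 1.05 for I).

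**Figure D2:**
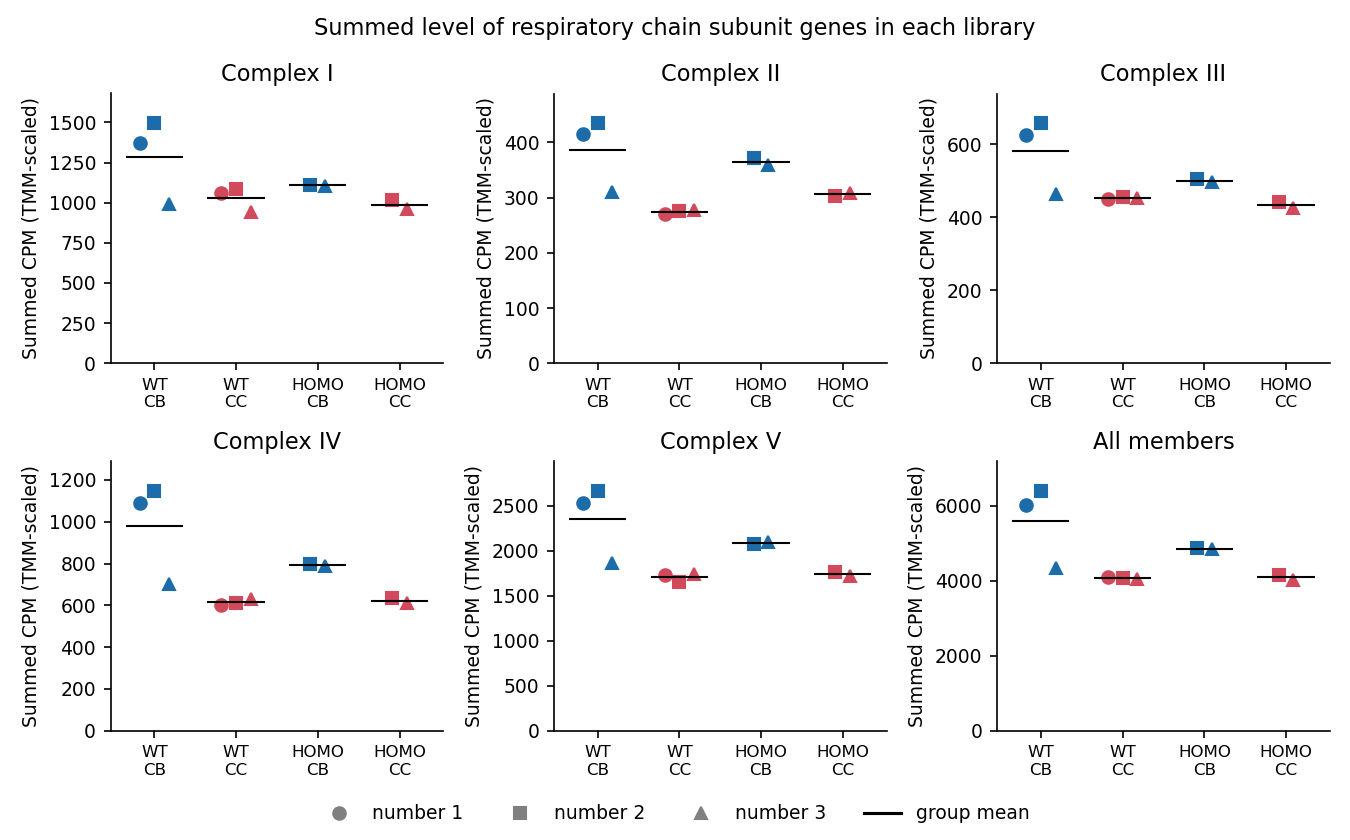
Summed CPM of the subunit genes in each library (points) with the group mean (bar), for each complex and for all members, by genotype and fraction. For all members WT CB 1 and 2 stand at 6033 and 6395 CPM, WT CB 3 at 4332 and the CC libraries between 4019.7 and 4158.

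In WT, 39 of the 79 tested members fell in CC against CB and 0 rose (edgeR quasi-likelihood test, Benjamini-Hochberg adjusted p under 0.05 over 16596 genes). Of all genes tested, 12.3% were called lower and 11.6% higher. The members' median log2 change was -0.45, against 0.01 over all genes, and 75 of 79 were below 0, against 49.3% of all genes. By complex, 13 of 35 members of complex I fell (median -0.36), 3 of 4 in complex II (-0.42), 4 of 9 in complex III (-0.24), 9 of 14 in complex IV (-0.70) and 10 of 17 in complex V (-0.53). In 32 members (40.5%) every CC library lay below every CB library, against 17.9% of all genes, and 0 members had every CC library above, against 16.5%. With bulk RNA, fewer cells of a type and less RNA per cell cannot be told apart.

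**Figure D3:**
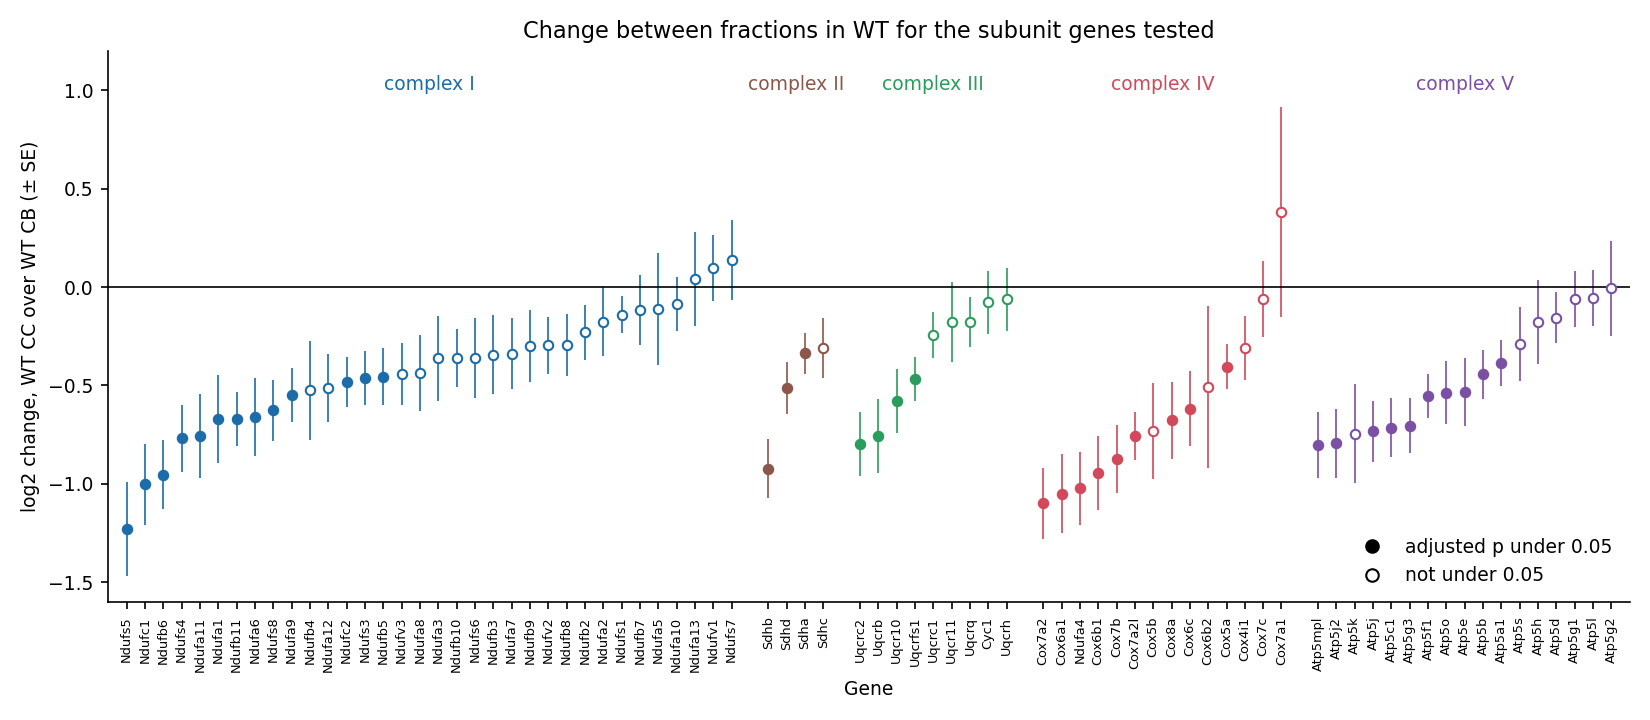
Change between CC and CB in WT for subunit genes tested, as log2 fold change with its standard error, by complex; filled points are the 39 that fell at an adjusted p under 0.05. The points of complex IV reach lowest as a group (median -0.70), and nearly all points lie below 0.

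These calls rested on the first 2 WT numbers together. They numbered 4 without both libraries of WT number 1, 3 without number 2 and 61 without number 3, against 3.27%, 3.82% and 23.9% of all genes called lower. Sdhb, Cox7a2 and Cox7a2l passed without number 1 and without number 2. Without 1 library at a time the count was 20 to 57, with 57 without WT CB 3 (16.8% of all genes lower). It was 20 without WT CB 1 or 2 and 23 without WT CC 1 or 2. These lower counts stand without the share of all genes, so they are not read as results about the members. Without WT CC 1 and 2, where macrophage markers and ribosomal RNA were highest, 2 members passed (2.52% of all genes) and the median stayed at -0.45, and with the ribosomal RNA share as a covariate Ndufs5 alone passed (2.1% of all genes, median -0.49). Within the WT number 3 pair and the HOMO libraries, 5 members fell in WT (8.3% of all genes, median -0.13), namely Ndufs5, Sdhb, Atp5k, Cox7a2 and Cox7a2l, with WT CC and WT CB at 1 library each and the spread taken from HOMO. The part of macrophage RNA and of the Xist difference between libraries was not tested further.

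Complex I has a core of subunits that carry its flavin, iron-sulfur clusters and ubiquinone site, surrounded by accessory subunits. Of the 7 nuclear core subunits 2 fell (median -0.14), and of the 28 accessory ones 11 fell (-0.44). Ndufb6, an accessory subunit of the membrane arm (chr4:40270591-40279421), stood at 13.4, 13.9 and 10.9 CPM in WT CB and 6.04, 5.75 and 8.00 CPM in WT CC, without overlap, and fell by 0.95 log2 units (SE 0.17, edgeR adjusted p = 0.00327). Ndufs5, an accessory subunit on the intermembrane side (chr4:123712710-123718202), was 11.8, 11.7 and 7.08 CPM in WT CB and 4.93, 4.56 and 3.44 CPM in WT CC, and fell by 1.23 log2 units (SE 0.24, edgeR adjusted p = 0.00448). All 3 CC libraries of both genes lay below all 3 CB libraries. Ndufb11, whose loss in people causes disease of heart and skin, was 51.6, 56.0 and 37.1 against 29.6, 30.7 and 30.5 CPM, and fell by 0.67 log2 units (SE 0.14, edgeR adjusted p = 0.00579). Ndufc1, a small membrane arm subunit with the YY1 letters at its start codon, was 15.6, 16.9 and 11.2 against 7.64, 5.44 and 8.78 CPM, and fell by 1.00 log2 units (SE 0.21, edgeR adjusted p = 0.00587).

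The core subunits named here were chosen after their values were seen, and whether their changes differ from each other was not tested. The 2 that fell were Ndufs8, which carries iron-sulfur clusters (75.0, 83.8 and 50.7 CPM in WT CB, 44.4, 42.9 and 48.3 CPM in WT CC, log2 -0.63, SE 0.16, edgeR adjusted p = 0.0144), and Ndufs3 (40.4, 41.9 and 32.1 against 24.7, 25.4 and 33.1 CPM, log2 -0.46, SE 0.14, edgeR adjusted p = 0.0312). Ndufs8 did not overlap between fractions, while WT CC 3 overlapped WT CB 3 for Ndufs3. Ndufv1, which binds the flavin that takes electrons from NADH, was 59.6, 63.9 and 41.9 CPM in WT CB and 71.0, 57.9 and 47.6 CPM in WT CC (log2 0.10, edgeR adjusted p = 0.724). Ndufs7, which holds the last iron-sulfur cluster before ubiquinone, was 25.7, 28.8 and 17.4 against 30.5, 28.5 and 19.6 CPM (log2 0.14, edgeR adjusted p = 0.680). Both overlapped between fractions.

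Complex II is the one complex of the chain with no mitochondrially encoded subunit, and its 4 genes are Sdha and Sdhb, the catalytic pair, and Sdhc and Sdhd, the membrane anchors. Sdhb, the iron-sulfur subunit (chr4:140961203-140979193), was 117, 125 and 78.9 CPM in WT CB and 51.3, 57.6 and 59.8 CPM in WT CC, and fell by 0.92 log2 units (SE 0.15, edgeR adjusted p = 0.00175). The fractions did not overlap. Sdhd was 43.8, 45.6 and 33.8 against 27.2, 26.5 and 32.8 CPM, and fell by 0.51 log2 units (SE 0.13, edgeR adjusted p = 0.0171). Sdha was 221, 227 and 172 against 164, 166 and 161 CPM, and fell by 0.34 log2 units (SE 0.11, edgeR adjusted p = 0.0385). For both genes WT CB 3 lay close above the CC range. Sdhc had a log2 change of -0.31 and did not pass (edgeR adjusted p = 0.169).

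Complex III passes electrons through the Rieske protein Uqcrfs1 and cytochrome c1, Cyc1. Uqcrfs1 was 67.4, 74.4 and 57.0 CPM in WT CB and 47.7, 44.6 and 51.4 CPM in WT CC, and fell by 0.47 log2 units (SE 0.11, edgeR adjusted p = 0.0114). Cyc1 was 70.2, 70.3 and 44.4 CPM in WT CB and 57.5, 64.5 and 52.9 CPM in WT CC, with overlapping fractions and a log2 change of -0.08. Uqcrc2, a core protein related to processing peptidases (chr7:120635176-120659524), was 139, 141 and 115 against 65.4, 62.4 and 99.5 CPM, and fell by 0.80 log2 units (SE 0.16, edgeR adjusted p = 0.00587). All CB libraries of Uqcrfs1 and Uqcrc2 lay above all CC libraries. Of the 5 small subunits 2 fell, Uqcrb (log2 -0.76, SE 0.19, edgeR adjusted p = 0.0149) and Uqcr10 (log2 -0.58, SE 0.16, edgeR adjusted p = 0.0253). Uqcrb was 30.9, 35.6 and 19.9 CPM in WT CB and 18.9, 17.1 and 15.0 CPM in WT CC, and Uqcr10 was 35.7, 38.1 and 23.4 against 20.8, 22.8 and 21.4 CPM.

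In complex IV, 8 of the 11 ubiquitous subunits fell (median -0.73), Cox7a2l fell, and the 2 tested of 8 tissue-restricted isoforms did not pass. Cox7a2l (chr17:83501918-83517330) encodes a relative of Cox7a2 described as joining complexes III and IV into supercomplexes, a role not examined in these mice. It was 188, 190.0 and 139 CPM in WT CB and 109, 93.5 and 103 CPM in WT CC, and fell by 0.76 log2 units (SE 0.12, edgeR adjusted p = 0.00169), the smallest p among the members. Cox7a2, the ubiquitous 7a form (chr9:79755361-79759878), was 52.4, 56.5 and 35.4 against 18.7, 21.2 and 27.6 CPM, and fell by 1.10 log2 units (SE 0.18, edgeR adjusted p = 0.00193). For both genes WT CB 3 was the lowest CB library and still lay above all WT CC libraries. Ndufa4, first assigned to complex I and later found in complex IV (chr6:11900292-11907497), was 57.3, 60.3 and 36.0 against 22.6, 23.4 and 29.6 CPM, and fell by 1.02 log2 units (SE 0.18, edgeR adjusted p = 0.00308). Cox6a1 (chr5:115345642-115348981), whose upstream window holds the full NRF1 motif, was 67.9, 70.3 and 38.3 against 25.4, 27.8 and 32.1 CPM, and fell by 1.05 log2 units (SE 0.20, edgeR adjusted p = 0.00408). The abundant early-assembly subunit Cox4i1, at 197, 209 and 127 CPM in WT CB and 152, 153 and 125 CPM in WT CC, had overlapping fractions and a log2 change of -0.31 (edgeR adjusted p = 0.200). Cox7c, chosen after its values were seen, had a change of -0.06 (edgeR adjusted p = 0.857).

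Complex V has a catalytic head, a peripheral stalk that holds the head still, a rotating c ring and small membrane subunits. Of the tested genes, 4 of 5 for the head fell (median -0.44), 3 of 4 for the stalk (-0.54), 1 of 3 for the ring (-0.06), 2 of 4 for the small membrane subunits (-0.77), and Atp5s did not pass. Atp5c1, the gamma shaft of the head, was 169, 181 and 132 CPM in WT CB and 87.1, 85.6 and 122 CPM in WT CC, and fell by 0.71 log2 units (SE 0.15, edgeR adjusted p = 0.00664). Atp5f1, the stalk's b subunit, was 171, 175 and 133 against 106, 105 and 115 CPM, and fell by 0.55 log2 units (SE 0.11, edgeR adjusted p = 0.00596). Neither overlapped between fractions. Atp5mpl, a small membrane subunit, was 36.8, 41.8 and 25.7 against 19.9, 17.5 and 22.3 CPM, and fell by 0.80 log2 units (SE 0.17, edgeR adjusted p = 0.0066).

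The c ring genes diverged. Atp5g3 (chr2:73908447-73911326), the dominant one, was 133, 126 and 99.4 CPM in WT CB and 64.5, 66.2 and 89.5 CPM in WT CC, and fell by 0.70 log2 units (SE 0.14, edgeR adjusted p = 0.00526). Atp5g1 was 20.1, 20.2 and 15.4 against 17.1, 16.7 and 19.7 CPM (log2 -0.06, edgeR adjusted p = 0.809), and Atp5g2 was 9.65, 9.07 and 5.62 against 9.41, 8.13 and 6.53 CPM (log2 -0.01, edgeR adjusted p = 0.990). The fractions overlapped for Atp5g1 and Atp5g2 and not for Atp5g3. Whether the 3 changes differ from each other was not tested.

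In HOMO, Cox7a2l alone passed the same test (2.98% of all genes lower, 2.46% higher). It was 138 and 131 CPM in HOMO CB and 85.4 and 80.2 CPM in HOMO CC, and fell by 0.70 log2 units (SE 0.15, edgeR adjusted p = 0.0211), but the call was lost without any 1 HOMO library (edgeR adjusted p = 0.102 to 0.186). The members' median log2 change was -0.20, against -0.01 over all genes, and 67 of 79 were below 0, against 51.0% of all genes. By edgeR 7 members had an unadjusted p under 0.05, a count given without the share of all genes. In 56 members (70.9%) both CC libraries lay below both CB libraries, against 33.2% of all genes. In 5 members (6.33%), Ndufv1, Ndufs3, Atp5l, Atp5g1 and Atp5d, both lay above, against 28.8%. The complex medians were -0.17, -0.20, -0.12, -0.31 and -0.21 for complexes I to V. Fitted on the HOMO libraries alone, with their own small spread, 25 members passed, against 15.9% of all genes lower. With same-numbered WT libraries as blocks and HOMO libraries unpaired, 5 passed (Cox7a2l, Sdhb, Atp5f1, Atp5k and Cox6b2, against 7.53%).

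Sdhb in HOMO was 86.0 and 88.0 CPM in CB and 58.6 and 54.8 CPM in CC (log2 -0.62, SE 0.18, edgeR adjusted p = 0.0796). Atp5f1 was 151 and 145 against 115 and 99.7 CPM (log2 -0.46, edgeR adjusted p = 0.0848), and Atp5k, the e subunit that helps pair ATP synthases, was 19.2 and 19.5 against 12.0 and 11.6 CPM (log2 -0.71, SE 0.32, edgeR adjusted p = 0.246). The HOMO fractions did not overlap for these 3 genes. The smallest p in complex III belonged to Uqcrfs1 (log2 -0.35, edgeR adjusted p = 0.185) and then Uqcrb (-0.39, edgeR adjusted p = 0.406), and in complex I to Ndufs4 (-0.39, SE 0.21, edgeR adjusted p = 0.357) and Ndufs5 (-0.50, edgeR adjusted p = 0.400). Across the 79 members the change in HOMO tracked that in WT with a Spearman rho of 0.685; the 2 comparisons share no library, but genes are not independent replicates.

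**Figure D4:**
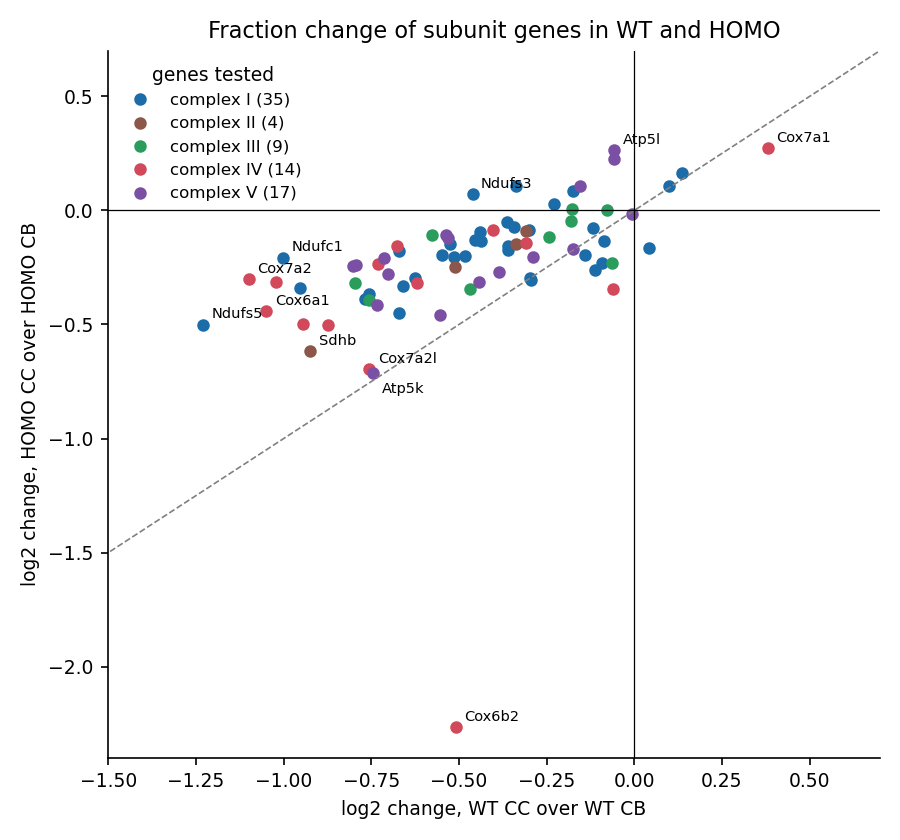
Change between CC and CB in WT (x axis) and in HOMO (y axis) for the 79 subunit genes tested, as log2 fold change, coloured by complex, with a dashed line where both are equal. Cox7a2l lies at -0.76 in WT and -0.70 in HOMO, and most other members lie closer to 0 in HOMO than in WT; Cox6b2, far down, rests on 4 counts and 1 count in HOMO CC.

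Between genotypes, no member passed in CB (0 of 79 by edgeR and 0 by DESeq2). Of all genes edgeR called 0.0241% and DESeq2 2.11% in either direction. By edgeR 10 members had an unadjusted p under 0.05, a count given without the share of all genes. The members' median log2 change, HOMO over WT, was -0.22, against -0.04 over all genes. Of the members 72 of 79 were below 0, against 54.3% of all genes. Both HOMO CB libraries lay below all WT CB libraries in 4 members (5.06%), Ndufv3, Uqcrq, Cox7a2l and Cox6b2, against 16.4% of all genes, and 0 members lay above, against 18.8%. Ndufa3, an accessory subunit of complex I, was 31.9, 33.7 and 18.1 CPM in WT CB and 19.6 and 17.1 CPM in HOMO CB (log2 -0.60, SE 0.24, edgeR adjusted p = 0.371). Cyc1 was 46.8 and 44.6 CPM in HOMO CB (-0.43, edgeR adjusted p = 0.376), Cox4i1 131 and 133 CPM (-0.43, edgeR adjusted p = 0.386) and Cox7a2l 138 and 131 CPM against 188, 190.0 and 139 in WT (-0.36, edgeR adjusted p = 0.342). In Ndufa3, Cyc1 and Cox4i1 the HOMO values lay beside WT CB 3 and well under WT CB 1 and 2. The other values by rule were Ndufv3 at -0.43, Sdhb at -0.29, Sdhc at -0.16, Uqcrq at -0.34, Atp5d at -0.32 and Atp5g1 at -0.34, with edgeR adjusted p from 0.371 to 0.710.

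That comparison turned on WT CB 3. Without it, 24 members were lower in HOMO CB and 0 higher (5.64% of all genes lower), and without both libraries of WT number 3, 53 were lower and 0 higher (15.1%), 24 of 35 in complex I, 2 of 4 in complex II, 7 of 9 in complex III, 9 of 14 in complex IV and 11 of 17 in complex V. Against WT number 3 alone the direction turned, with a median of 0.16 and 5 members higher in HOMO CB (Sdha, Ndufv2, Ndufa4, Cox6b1 and Cox7b; 2.05% of all genes). Xist and the GC trend of the libraries split the same way. Xist was 467 and 72.5 CPM in WT CB 1 and 2 and 2668, 2022 and 2884 CPM in WT CB 3 and the HOMO CB libraries. Each library's deviation across genes tracked gene GC content with a rho of 0.150 and 0.248 in WT CB 1 and 2 and of -0.457, -0.632 and -0.605 in WT CB 3 and HOMO CB. With a GC correction and without WT number 3, 41 members were lower, with 16.9% of all genes called in either direction. The part of these differences in the result was not tested further.

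In CC no member passed by edgeR either (0 of 79), and 1 passed by DESeq2, Ndufb6. Of all genes edgeR called 0.0% and DESeq2 5.28%. By edgeR 9 members had an unadjusted p under 0.05, a count given without the share of all genes. The members' median was 0.01, against -0.03 over all genes, with 41 members above 0 and 38 below. Of all genes 52.9% were below 0. Both HOMO CC libraries lay above all WT CC libraries in 23 members (29.1%), against 17.7% of all genes, and below in 10 (12.7%), against 17.4%. Ndufb6 was 6.04, 5.75 and 8.00 CPM in WT CC and 9.95 and 11.6 CPM in HOMO CC (log2 0.71, SE 0.20, edgeR adjusted p = 0.136). Ndufa4 was 22.6, 23.4 and 29.6 against 41.3 and 34.9 CPM (0.60, edgeR adjusted p = 0.173), and Atp5c1 87.1, 85.6 and 122 against 133 and 138 CPM (0.46, edgeR adjusted p = 0.186). In all 3, HOMO lay above WT and WT CC 3 was the WT library nearest to it.

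The remaining members named by rule in CC did not pass either. Uqcrc2 had a log2 change of 0.40 (edgeR adjusted p = 0.267), Ndufs3 of 0.39 (0.210), Sdhd of 0.33 (0.256), Sdha of 0.18 (0.414) and Atp5mpl of 0.46 (0.230), while Cyc1 stood at -0.35 (0.323). Cox6b2, the testis isoform, was 1.03, 0.621 and 0.772 CPM in WT CC and 0.244 and 0.0949 CPM in HOMO CC, from 25, 12 and 11 counts against 4 counts and 1 count, and did not pass (edgeR adjusted p = 0.136). Without WT CC 3, 8 members were higher and 2 lower in HOMO (7.45% and 7.37% of all genes), and without both libraries of number 3, 21 were higher and 15 lower (16.5% and 14.8%). Against WT number 3 alone, Cox7a2l was lower and no other member passed (1.81% of all genes lower). WT CC 1 and 2 had the highest macrophage and ribosomal RNA values of the 10 libraries and the lowest Xist of the CC libraries, and the part of these in the result was not tested.

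**Figure D5:**
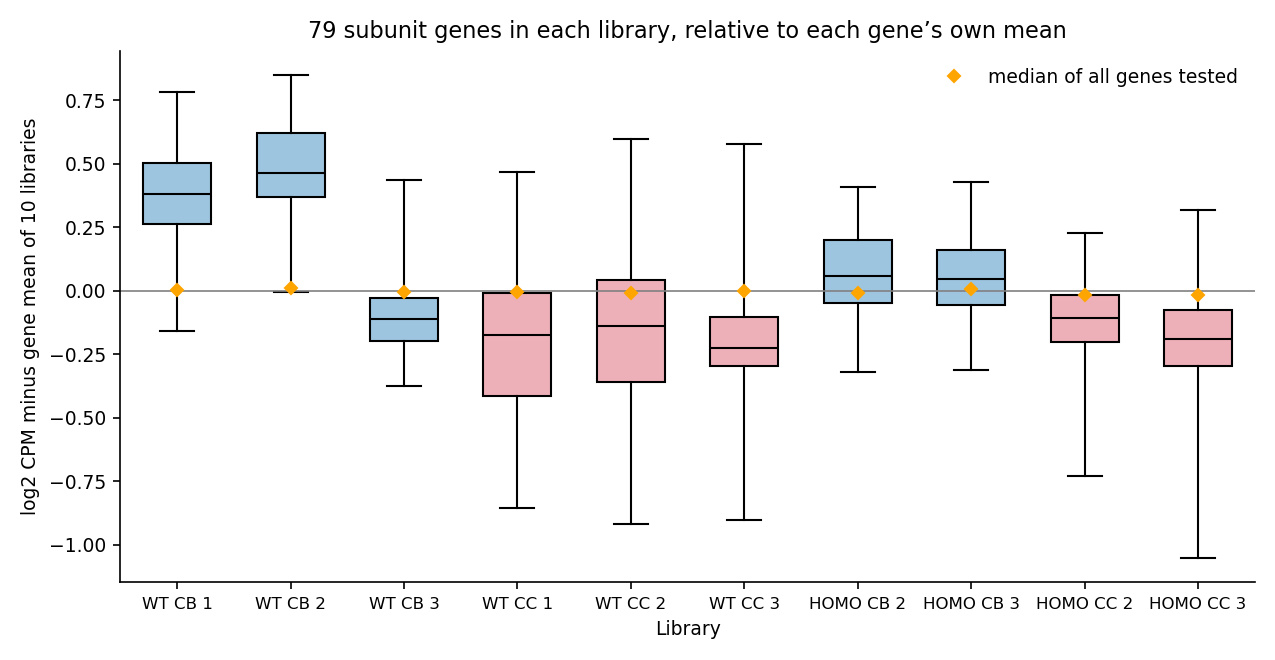
Each of the 79 subunit genes in each library as log2 CPM minus the gene's mean over the 10 libraries, as boxes from the lower to the upper quartile with whiskers to the extremes, and the median of all genes tested as diamonds. WT CB 1 and 2 stand apart with member medians of 0.38 and 0.46, WT CB 3 stands at -0.11, and the medians over all genes lie between -0.02 and 0.01.

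The test of whether the fraction change differed between genotypes called 0 of 79 members by edgeR and 0 by DESeq2. The share of all genes called was 0.0%. By edgeR 7 members had an unadjusted p under 0.05, a count given without the share of all genes. The median difference, HOMO minus WT, was 0.28, against -0.005 over all genes, and 68 of 79 members were above 0. Below 0 lay 13.9% of the members and 50.7% of all genes. The values by rule were largest for Cox7a2 (0.80, SE 0.28) and Ndufc1 (0.80), followed by Ndufa4 (0.71), Atp5mpl (0.56), Ndufs3 (0.53), Atp5c1 (0.51), Uqcrc2 (0.48), Uqcr10 (0.47), Sdhb (0.31) and Sdhd (0.26), all with an edgeR adjusted p of 1.00. Without both libraries of WT number 3, 31 members had a positive difference and 0 a negative one (5.04% of all genes positive), including Atp5c1, Cox7a2, Uqcrc2 and Ndufa4. Against the WT number 3 pair alone the complex medians were 0.02, -0.08, -0.15, -0.22 and -0.08.

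The 13 protein-coding genes of mitochondrial DNA were set beside the nuclear members as a ratio. Their summed CPM divided by that of the nuclear members was 3.30, 2.89 and 2.91 in WT CB, 6.65, 3.94 and 2.31 in WT CC, 2.62 and 2.40 in HOMO CB, and 2.25 and 2.26 in HOMO CC. WT CC 1 and 2 had the highest ratios and WT CC 3 lay below all WT CB libraries, so that WT CC spread widest. Of 12 mitochondrial genes tested, none passed in any comparison (0 by edgeR). Their median log2 change was -0.02 between WT fractions, -0.64 between HOMO fractions, -0.46 between genotypes in CB and -1.43 in CC, against -0.45, -0.20, -0.22 and 0.01 for the nuclear members, and whether the sets differ was not tested. The libraries were made with a ribosomal RNA depletion kit, and in WT CC the ratio was ordered as the ribosomal RNA share (22.7%, 19.0% and 13.5%), whose part was not tested.

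Genes of related steps were read from lists, and their counts stand against the same 12.3% of all genes called lower and 11.6% called higher between WT fractions. In the tricarboxylic acid cycle, which feeds the chain, 9 of 17 genes fell in WT CC and 0 rose (median -0.29), among them Suclg2 (log2 change -0.59), a subunit of succinyl-CoA ligase, mitochondrial isocitrate dehydrogenase Idh2 (-0.72) and Dld (-0.68), the shared dehydrogenase subunit of several complexes. In HOMO, Idh2 alone passed (-0.59, edgeR adjusted p = 0.0437). Of 20 tested assembly factors of complex IV 3 fell in WT CC, Coa6 (log2 change -0.90), Cox20 (-0.53) and Coa5 (-0.39), a share near that of all genes. Coa5 no longer passed under 19 alternatives, Cox20 under 12 and Coa6 under 5, and Cox20 changed sign under 1 more. Of 15, 4, 6 and 4 assembly factors of complexes I, II, III and V 0 passed by edgeR. Coa6, which helps deliver copper, was 7.80, 6.70 and 6.63 CPM in WT CB, 3.86, 3.52 and 3.93 CPM in WT CC, 7.03 and 6.63 CPM in HOMO CB, and 6.59 and 7.02 CPM in HOMO CC. Its WT CC libraries lay below the other 7.

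Other lists went both ways. Of 15 genes for electron carriers and ubiquinone synthesis, 4 rose and 2 fell in WT CC, the latter near the share of all genes. Coq8a, an ATPase of ubiquinone synthesis, was 9.45, 11.2 and 12.7 CPM in WT CB and 20.9, 23.5 and 20.8 CPM in WT CC and rose by 0.96 log2 units, and it rose by 1.12 log2 units in HOMO (edgeR adjusted p = 0.00765). Coq7, a hydroxylase of the same pathway, rose by 0.64 log2 units in WT CC, and Etfa, a subunit of the electron transfer flavoprotein, fell by 0.54 log2 units. Of 11 tested regulators of mitochondrial genes, 3 rose and 2 fell. The coactivators Ppargc1b (log2 change 1.27) and Pprc1 (0.90) and the receptor Esrra (0.79) rose in WT CC, the opposite sign to the members' median of -0.45, while the factors Yy1 (-0.44) and Gabpa (-0.42) fell. In HOMO, Pprc1 rose by 0.75 log2 units and Yy1 fell by 0.46 log2 units. Between genotypes, 0 genes of these lists passed in CB, CC or the difference of fraction changes by edgeR.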

How the data were processed

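The deposited table holds raw gene counts per library and a gene length. The authors' tools were FastQC, STAR, featureCounts from Subread and R 4.2.1 with build mm10, per the submitters' processing notes, which give no order or settings. Identifiers were matched to GENCODE release 21 of the mouse, 54673 with and 567 without their version, and 181 found no match. The members and all lists were chosen with earlier results of these data known. Counts were scaled with TMM, and genes with at least 10 counts in enough libraries and 15 in all (edgeR's filter) were tested in 1 fit of 4 groups with edgeR 4.0.16 in R 4.3.3 (quasi-likelihood F test, Benjamini-Hochberg adjustment over 16596 genes, threshold 0.05, biological coefficient of variation 23.1%). DESeq2 1.42.0 was an alternative.

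Named members are, per comparison and complex, up to 4 with the smallest p that passed, or the 2 with the smallest p as values. Isoform pairs, the highest and lowest member per kilobase and up to 3 genes per list are named as well. The values of 1 member of complex I are not reported here, though it is in the counts and sums. Other named genes, and the role groups within complexes, were chosen after values were seen. Ribosomal RNA locus genes stayed in the library totals.

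On simulated counts of the same libraries, changes of 1.5, 2 and 4 fold were recovered in 23.9%, 79.1% and 100% of cases between WT fractions (16025 genes), 13.4%, 71.6% and 97.0% between HOMO fractions (16022 genes), 22.4%, 68.7% and 100% between genotypes in CB (16006 genes) and 17.9%, 74.6% and 97.0% in CC (16022 genes). The simulation drew each gene independently, without shared shifts of whole libraries, pairing or GC differences, so these rates do not cover them. Same-numbered WT libraries deviated together across 8805 genes (r = 0.301, 0.426 and 0.436), against -0.411 to 0.278 for other pairs. Deviations were centred within each group, which pulls other pairs down, and WT CB 1 with WT CC 2 gave 0.278. The numbers were taken to pair WT libraries in the replicate block and in ratios within a number. The main fit was unpaired, and the labels do not state what a number marks. Promoter sequences come from RefSeq on GRCm38.p6. Alternatives covered scaling, filters, GC content, length, ribosomal RNA share, the replicate block and left-out libraries.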

Additional observations from a re-analysis of the deposited data

How the results depend on the processing

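Counts of members that passed in each comparison are given against 39 (WT fractions), 1 (HOMO fractions) and 0 (both genotype comparisons and the difference of fraction changes). Leaving out 1 library at a time gave 20 to 57, 0 to 7, 0 to 24 (genotypes in CB), 0 to 10 (genotypes in CC) and 0 to 0. The 57 and the 24 came without WT CB 3, where 32.0% and 12.1% of all genes were called in those comparisons. The 10 came without WT CC 3, where 14.8% were. The other counts in these ranges stand without the share of all genes, so they are not read as results about the members. Without both libraries of WT number 3 the counts were 61, 25, 53, 36 and 31. Of all genes, 46.0%, 23.0%, 30.4%, 31.3% and 8.98% were called in the same fits. For WT fractions the count was 4 without number 1 (6.32% of all genes) and 3 without number 2 (7.62%). With only the groups compared the counts for the fractions were 23 and 25. The fits with only the groups compared called 15.6% of all genes between WT fractions and 30.4% between HOMO fractions. The ribosomal RNA covariate left 1 in WT (3.95% of all genes). DESeq2 gave 3 between HOMO fractions (11.8% of all genes) and 1 between genotypes in CC (5.28%). The GC offset gave 3 between HOMO fractions. No filter on low counts gave 6 between HOMO fractions, 4 and 5 between genotypes in CB and CC, and 1 for the difference. The GC offset and no-filter counts stand without the share of all genes, so they are not read as results about the members.

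With the replicate block, which pairs same-numbered WT libraries only, 48 members passed between WT fractions (37 of the 39 among them). Between HOMO fractions 5 passed. The share of all genes called went from 23.9% to 35.4% in WT and from 5.45% to 13.8% in HOMO. With block and GC offset 47 and 7 passed, counts that stand without the share of all genes and are not read as results about the members. HOMO libraries were not paired in either fit. For the difference of fraction changes the block left 0.

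Alternatives chosen after seeing the data were these. Without WT numbers 1 and 2 the counts were 5, 26, 5 and 1 for WT fractions, HOMO fractions and genotypes in CB and CC, with 14.7%, 27.0%, 4.07% and 3.95% of all genes called. With the GC offset and without WT number 3 they were 63, 28, 41, 34 and 34, with 45.0%, 20.2%, 16.9%, 22.6% and 9.83% of all genes called. The GC and length offset gave 30 between WT fractions, 29 lower and 1 higher, with 25 of the 39 among them, and 2 between HOMO fractions. It also turned Cox20, a complex IV assembly factor, from -0.53 to 0.10 (edgeR adjusted p = 0.697). On plain CPM the log2 ratio of the summed level was -0.18 between HOMO fractions, against -0.25 with TMM, and 0.13 between genotypes in CC, against 0.0042; both differ by the TMM factors alone (0.899 to 1.06 over the CC libraries). The cause of the other shifts was not tested. The median member change stayed below 0 under every alternative run between fractions (-0.62 to -0.13 in WT, -0.25 to -0.13 in HOMO), and it ran from -0.38 to 0.16 between genotypes in CB. With 2 HOMO libraries a group and changes mostly under 2 fold, single members are resolved poorly.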
